A study of Mus musculus with 15 samples.

Results

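Knockdown of Ezh2 by siRNA in B16-F10 cells, an established mouse melanoma line, was compared with a scrambled siRNA. The comparison used 6 of the 15 RNA sequencing samples, chosen by their labels: 3 that received the siRNA against Ezh2 (siEzh2) and 3 that received the scrambled control (scr). The other 9 samples, all of the same line, form a compound arm with 3 samples each for the vehicle DMSO, for GSK126 and for DZNep, both compounds at 2 µM. GSK126 inhibits the methyltransferase activity of EZH2, and DZNep inhibits S-adenosylhomocysteine hydrolase. No genetic change is labelled in any group, and the labels give neither a time after transfection nor the siRNA sequences. Of 46078 gene identifiers in the count table, 15152 passed the expression filter and were tested.

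EZH2 carries the methyltransferase activity of PRC2, a Polycomb complex that also holds EED, SUZ12 and RBBP4 or RBBP7 and methylates lysine 27 of histone H3. This mark is associated with silencing, chiefly at the CpG-rich promoters of developmental regulators. EZH1 is a paralog that can replace EZH2 in the complex. In melanoma, EZH2 has been studied for its part in growth, pigmentation and immune recognition. An siRNA lowers the mRNA and through it the protein, whereas GSK126 blocks the activity of the protein.

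The 6 siRNA libraries held 33299524 to 49221045 counts, so that 1 count was worth 0.0193 to 0.0306 CPM (counts scaled to 1000000 per library). Levels below are CPM on TMM-scaled library sizes, and fold changes are log2 values ± standard error from 1 edgeR fit of all 15 libraries. Genes with a Benjamini-Hochberg adjusted p under 0.05 were called. The first principal component of the 6 libraries held 50.1% of their variance and separated siEzh2 from scr, and the second held 17%. Mitochondrially encoded transcripts took 8.87% ± 1.83 (SD, n = 3) of counts in scr and 8.04% ± 0.818 in siEzh2, and none of the 13 was called. The labels do not say whether the replicates were separate cultures. The p-values reflect the spread among these libraries and that spread may be technical. Bulk RNA cannot tell fewer expressing cells from less RNA per cell. Of 8 melanocyte markers, all 8 were tested, and their summed level was 19219 to 20288 CPM in scr and 24370 to 25854 CPM in siEzh2. In DMSO it was 25624 to 25960 CPM. Blood and macrophage markers summed to at most 4.17 CPM in either siRNA group, with Ptprc at 0 in all 6 libraries, and endothelial markers to at most 0.122 CPM. Of 3 fibroblast markers tested, Postn and Pdgfra rose against scr and Pdgfrb was not called (-0.25). Against DMSO Postn was higher (1.02) and Pdgfra lower (-0.69). The list summed to 15 to 15.7 CPM in scr, 23.2 to 25.1 CPM in siEzh2 and 19.8 to 21.2 CPM in DMSO. The epithelial markers summed to 2.33 to 3.01 and 4.51 to 4.95 CPM, with Cdh1 called higher and Krt5 and Krt14 at 0. The part of other cell types in the results was not tested.

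Ezh2 fell with its siRNA in every library. The gene lies on chromosome 6 (GRCm38, 47530139 to 47595341, minus strand). It stood at 215, 227 and 215 CPM in scr and at 37.6, 39.9 and 41.3 CPM in siEzh2. The groups did not overlap, and the log2 fold change was -2.47 ± 0.05, a 5.53-fold lower level (adjusted p = 1.22e-17). DMSO libraries held 204 to 209 CPM, so that siEzh2 was lower by -2.38 on the log2 scale against them as well, and GSK126 libraries held 208 to 221 CPM. An antisense gene, Gm26625, overlaps Ezh2, and whether the counting used strand is unknown.

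The paralog Ezh1 was not called. It measured 48, 42 and 42.3 CPM in scr and 40.9, 46 and 47.2 CPM in siEzh2, overlapping ranges, with a log2 fold change of 0.02 ± 0.07 (adjusted p = 0.873). Its sign differed between settings. Per kilobase of exon, Ezh2 in siEzh2 (5.93 CPM per kb) was close to Ezh1 (6.01), whereas in scr Ezh2 was at 32.8 and Ezh1 at 5.93.

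Of the 6 core PRC2 genes tested, 3 fell and none rose, against 12.9% of all genes called lower, 13.2% called higher and 26.1% called either way. Beside Ezh2, which the siRNA targets, these were Rbbp4, a histone-binding subunit (200 to 174 CPM in the group means, -0.20 ± 0.05, adjusted p = 0.00661), and Suz12 (353 to 319 CPM, -0.14 ± 0.05, adjusted p = 0.0358). The Suz12 call was lost in 9 of the settings tried. Neither Rbbp4 (-0.12) nor Suz12 (0.01) was called in siEzh2 against DMSO, where the 2 core genes called lower were Ezh2 and Rbbp7 (-0.20). Eed, the subunit that reads the methyl mark, measured 28.8 to 29.3 CPM in scr and 28.6 to 29.1 in siEzh2. Of 7 accessory subunits, 3 fell and 1 rose. Phf19, which helps bring PRC2 to chromatin, fell from 21.1, 20.6 and 22 CPM to 13.4, 15.3 and 14.3 CPM (-0.56 ± 0.07, adjusted p = 2.26e-06), and DMSO libraries stood at 13.2 to 14.1 CPM. Mtf2, a related accessory subunit, fell by 0.39 and Epop by 0.62. Against DMSO Mtf2 was not called (-0.15) and Epop was lower (-0.88). Jarid2 rose from 96.6 ± 4.51 to 111 ± 2.34 CPM (SD, n = 3).

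**Figure D1:**
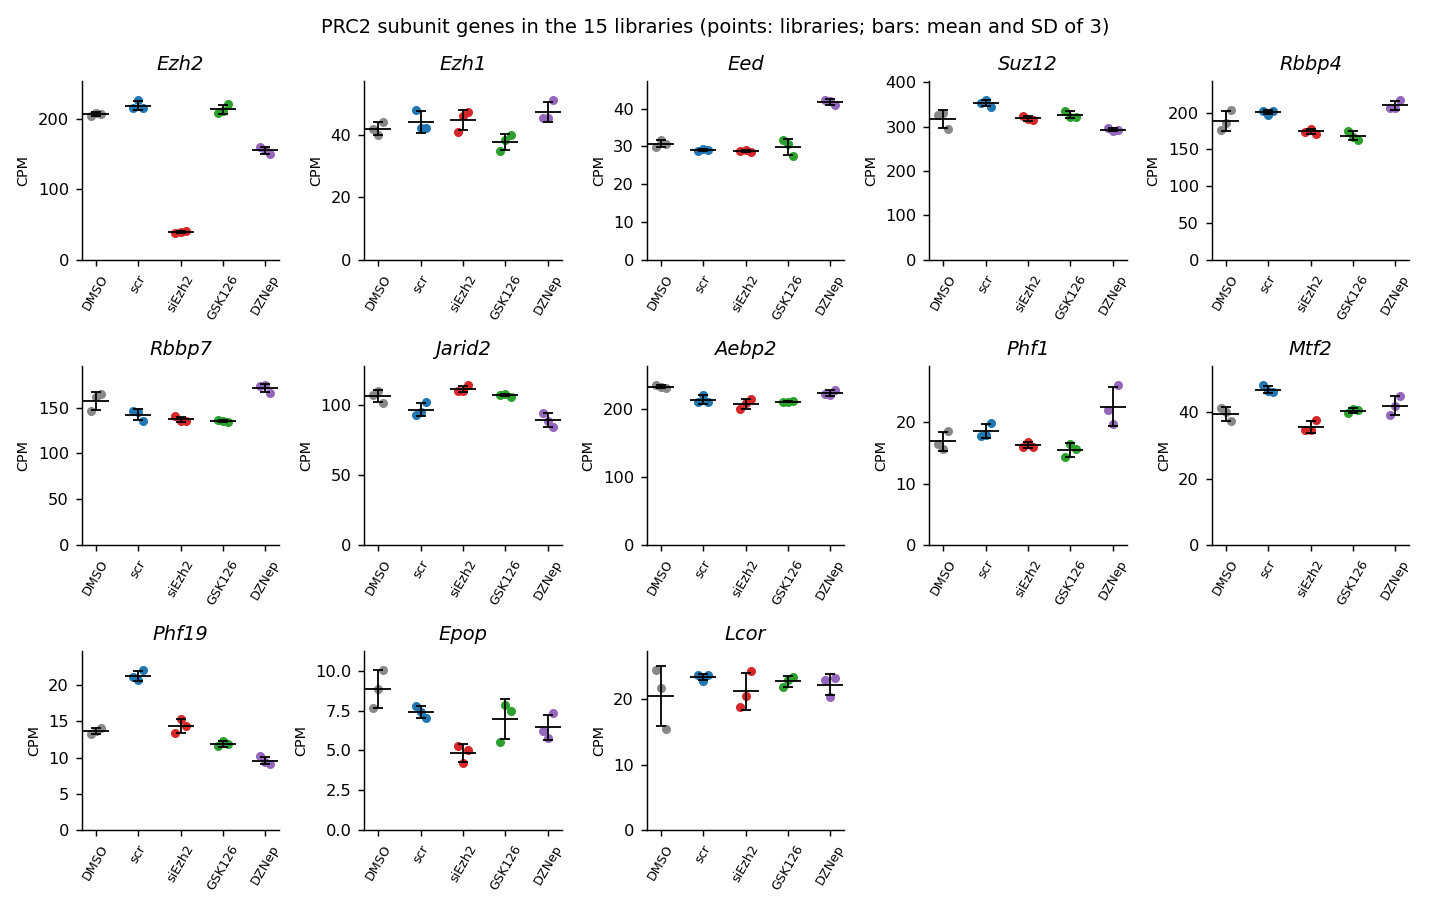
Levels of 13 PRC2 genes in CPM (vertical axis, from 0) in the 5 groups, with points for libraries and bars for the mean and SD of 3. Ezh2 lies between 37.6 and 41.3 CPM in siEzh2 and at or above 150 CPM in every other library, while Eed and Ezh1 lie at like levels in scr and siEzh2.

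On TMM-scaled library sizes the called genes were balanced in direction, with 2000 genes higher and 1953 lower in siEzh2 than in scr. This balance depends on the scaling, since on library totals alone 42.2% of calls were higher. Of the higher genes, 407 changed at least 1.5-fold and 150 at least 2-fold, and of the lower genes 427 and 182. The median called increase was 1.26-fold and the median called decrease 1.25-fold, and the median log2 fold change of all genes was -0.01. In 3879 of the called genes the 3 libraries of one group lay beyond all 3 of the other, as they did in 6334 (41.8%) of all genes tested.

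The share of genes called rose with level, from 9.56% of the 2666 genes under 1 CPM to 33% of the 2303 genes at or above 100 CPM. Of the called genes, 82 of the 150 genes raised at least 2-fold and 85 of the 182 lowered at least 2-fold had a mean under 1 CPM over the 6 libraries. Among protein-coding genes 29.5% were called, and among long noncoding RNAs 15.8%.

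**Figure D2:**
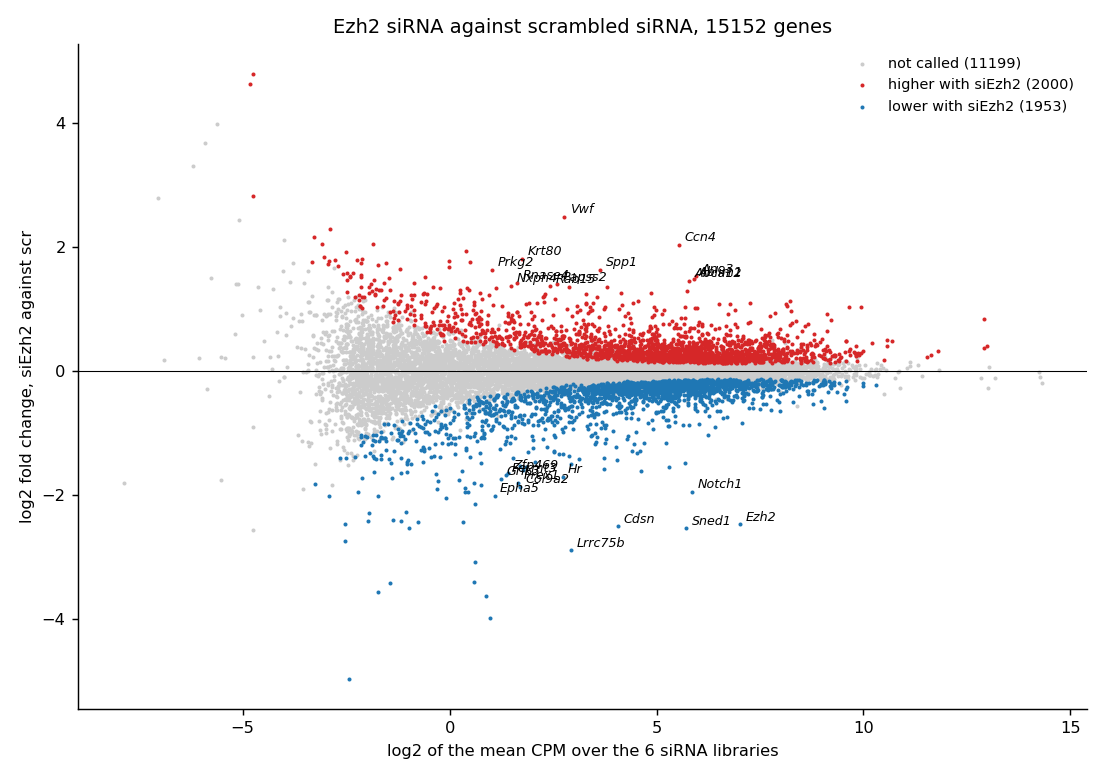
The log2 fold change of siEzh2 against scr (vertical axis) is plotted against the log2 mean CPM of the 6 siRNA libraries for each tested gene, with the 2000 higher genes in red, the 1953 lower genes in blue and the genes named as largest changes labelled. Ezh2, at -2.47, is the 1 gene with a mean at or above 100 CPM that was lowered at least 2-fold.

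Genes that were at or near 0 in scr stayed low. Of 27609 identifiers with 3 counts or fewer over the 3 scr libraries, the highest in siEzh2 was Clca3a1, with 19 counts over 3 libraries against 3 in scr, which is 0.161 CPM. A list of 121 developmental regulators that PRC2 is known to bind in other cells, such as Hox, Gata and Tbx genes, had 47 tested members. The other 74 failed the filter: 47 had no count in any of the 6 libraries, 68 had 3 counts or fewer over the siEzh2 libraries, and none exceeded 0.0601 CPM there. Of the 47 tested, 8 rose (17%) and 5 fell (10.6%), near the 13.2% and 12.9% of all genes, with a median of 0.03 against -0.01 for all genes. Among those that rose were Meis2, a homeobox cofactor (160 to 210 CPM, 0.39 ± 0.06), and Tbx4, a T-box factor (42 to 53.7 CPM, 0.36 ± 0.05). Hoxb9 fell from 15.7 to 6.96 CPM (-1.18 ± 0.13, adjusted p = 1.02e-06), and DMSO libraries averaged 7.53 CPM. The count of 8 was 4 without scr replicate 1, 5 without siEzh2 replicate 2 and 5 with the replicate block. Cdkn2a and Cdkn2b, cell-cycle inhibitors known as PRC2 targets in other cells, had no count in any of the 6 libraries. RNA counts cannot tell whether these genes are silent or absent from the genome of these cells, which was not tested.

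Promoters were compared over the 250 bases before each RefSeq start (GRCm38.p6), for 10395 tested genes with an entry. The median number of CG pairs was 15 over all 13317 promoters, 14 for higher genes and 16 for lower genes. For genes raised at least 2-fold it was 5, and for those lowered at least 2-fold it was 9. Promoters with 5 or fewer CG pairs made up 17.6% of all, 53.5% of those of genes raised at least 2-fold and 33.3% of those of genes lowered at least 2-fold. Level moves with fold size, as given above, and its part in this was not tested.

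Among called genes with a mean of at least 2 CPM over the 6 libraries, no overlap between groups and a symbol other than a predicted or clone name, the 12 largest increases were Vwf, Ccn4, Krt80, Prkg2, Spp1, Ano3, Ablim1, Abca12, Rnase4, Papss2, Nxph4 and Rab15. Vwf encodes von Willebrand factor, a clotting protein of endothelium, whose other markers were near 0 as given above. It stood at 2.2, 2.31 and 1.65 CPM in scr and 10.8, 11.9 and 12.1 CPM in siEzh2, a log2 fold change of 2.49 ± 0.13 (adjusted p = 3.53e-11). DMSO libraries lay between, at 5.17 to 7.39 CPM. Ccn4, a secreted matricellular protein of the WNT pathway, rose from 18.7, 18.3 and 17.5 CPM to 76, 72.1 and 75.3 CPM (2.03 ± 0.05, adjusted p = 4.23e-16). All 3 siEzh2 libraries were also above DMSO, at 31.6 to 35.4 CPM. Krt80, a keratin, rose from 1.39, 1.57 and 1.49 CPM to 5.63, 5.17 and 4.91 CPM (1.82 ± 0.13, adjusted p = 2.27e-09), and Spp1, which encodes osteopontin, from 6.42, 5.83 and 5.89 CPM to 21, 17.9 and 17.6 CPM (1.63 ± 0.10, adjusted p = 1.49e-10). The remaining 8 changed by 1.37 to 1.63. Rnase4 overlaps Ang on the same strand, and the counting could split reads between them.

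By the same conditions the 12 largest decreases were Lrrc75b, Sned1, Cdsn, Ezh2, Epha5, Notch1, Col9a2, Prex1, Grik3, Hr, Fermt3 and Zfp469. Lrrc75b fell from 12.2, 13.6 and 14.7 CPM to 1.68, 1.75 and 1.99 CPM (-2.89 ± 0.12, adjusted p = 7.82e-13), with DMSO at 3.67 to 4.15 CPM. Sned1, an extracellular matrix protein, fell from 94.3, 84 and 91.2 CPM to 14.8, 13.3 and 18.2 CPM (-2.54 ± 0.13, adjusted p = 9.26e-10). Cdsn, which encodes corneodesmosin of the skin barrier, fell from 26.9, 30.4 and 28.1 CPM to 4.71, 4.97 and 5.34 CPM (-2.50 ± 0.12, adjusted p = 4.11e-11). For both, siEzh2 overlapped DMSO, where Sned1 measured 12.9 to 19.7 CPM and Cdsn 4.78 to 5.55 CPM. Notch1, a receptor for cell-contact signals, fell from 95.8, 88.7 and 92.5 CPM to 23.2, 21.5 and 27.2 CPM (-1.94 ± 0.10, adjusted p = 2.51e-10), and DMSO libraries held 33.2 to 42.1 CPM.

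Where siEzh2 stood against the DMSO cells of the compound arm differed from gene to gene. The 2 siEzh2 comparisons share the siEzh2 libraries, and arm and transfection cannot be told apart in a difference from DMSO. scr against DMSO called 25.9% of genes, 12.2% higher and 13.6% lower. siEzh2 against DMSO called 14.2% of all genes, 6.41% higher and 7.76% lower. Of the 12 largest increases over scr, 11 were also called higher than DMSO and 1 was not called, and in all 12 scr was called lower than DMSO. Of the 12 largest decreases, 6 were also called lower than DMSO, 1 was called higher and 5 were not called, and in 11 scr was called higher than DMSO. Over all calls, 1443 of the 2000 higher genes and 1398 of the 1953 lower genes were not called against DMSO.

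**Figure D3:**
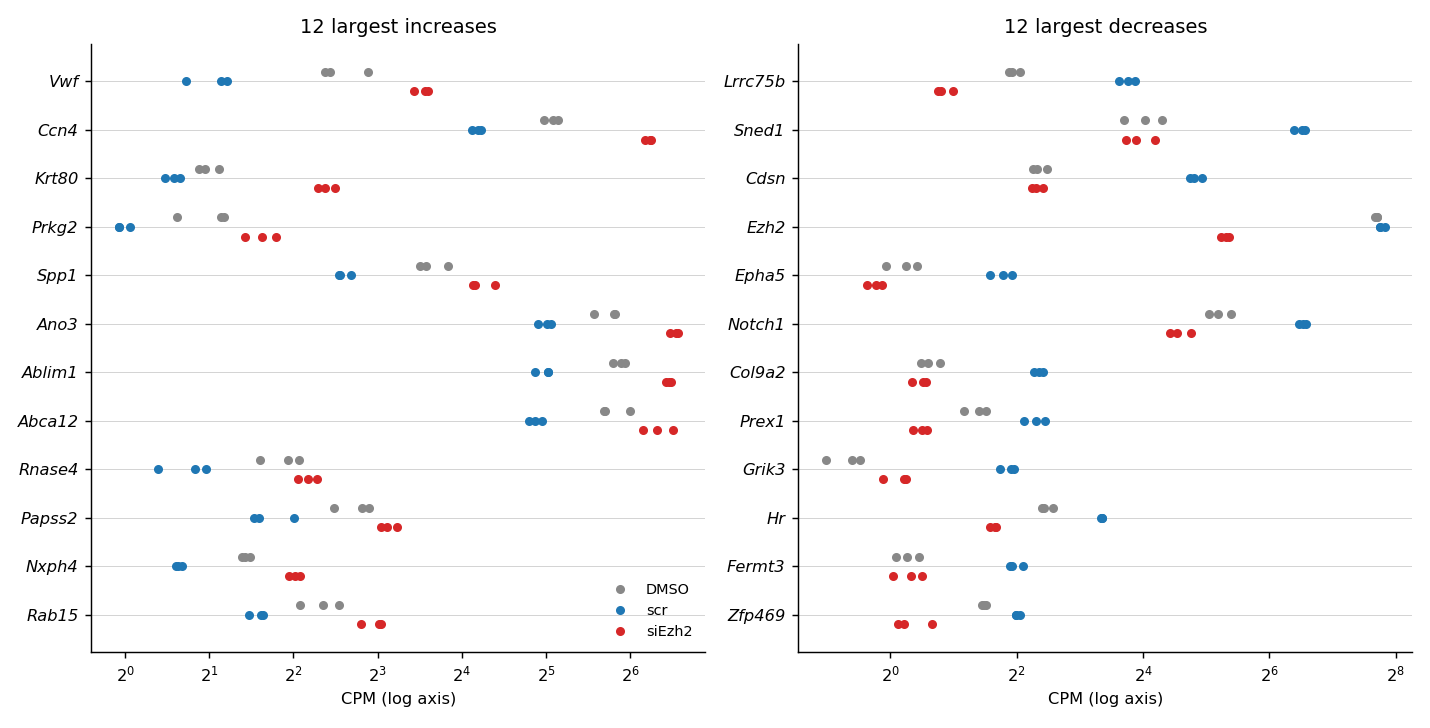
CPM (horizontal log axis) of the 12 largest increases (left) and the 12 largest decreases (right), with 1 point per library for DMSO, scr and siEzh2. Sned1 and Cdsn overlap between siEzh2 and DMSO and are high in scr, while Ezh2 is low in siEzh2 alone.

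Genes called the same way against both controls, taken by the smaller of the 2 fold changes and chosen after their values were seen, were led by Krt80, Fyb, Ccn4 and Postn upward and Ezh2, Cyp26b1, Zfp469 and Lrrc75b downward. Postn, a matrix protein of fibroblasts and also of tumour cells, was at 6.28 CPM in scr, 6.66 in DMSO and 13.4 in siEzh2. Cyp26b1, which breaks down retinoic acid, was at 33.2, 30.7 and 13.3 CPM (log2 fold change -1.32 against scr and -1.21 against DMSO). Met, the receptor for hepatocyte growth factor, stood at 157, 166 and 162 CPM in scr, 165 to 187 CPM in DMSO and 312, 303 and 310 CPM in siEzh2 (0.93 ± 0.05 against scr, adjusted p = 3.53e-11). For Postn, Cyp26b1 and Met the 2 controls lay close together, with scr against DMSO at -0.08, 0.11 and -0.11 on the log2 scale. Axl, a receptor kinase linked to less differentiated melanoma cells, fell from 31.2, 28.9 and 30.8 CPM to 11.9, 11.2 and 13.9 CPM (-1.30 ± 0.07, adjusted p = 7.72e-11), below the 17 to 17.6 CPM of DMSO.

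Of 41 melanin and melanosome genes, 20 rose (48.8%) and 2 fell (4.88%) against scr, with a median of 0.17. Against DMSO 7 were higher (17.1%) and 4 lower (9.76%), with a median of 0.04. In scr against DMSO 3 were higher (7.32%) and 19 lower (46.3%). Mlph, which ties melanosomes to the myosin motor, rose from 186, 192 and 180 CPM to 425, 391 and 410 CPM (1.13 ± 0.05, adjusted p = 1.03e-11), and DMSO libraries held 413 to 454 CPM. Oca2, a melanosomal channel, rose from 22.9, 19 and 18.7 CPM to 39.4, 42.7 and 42.3 CPM (1.04 ± 0.07), above the 27.3 to 28.3 CPM of DMSO. Trpm1, a cation channel of melanocytes, rose from 40.4, 41.1 and 38.4 CPM to 79.9, 84.6 and 79.2 CPM (1.02 ± 0.08). Mfsd12, a melanosomal cysteine transporter, fell by 0.66. Of the 8 melanocyte markers, 7 rose against scr, while against DMSO 2 were higher and 2 lower. Mitf, the master transcription factor of the lineage, rose from 640 to 896 CPM (0.48 ± 0.06, adjusted p = 2.42e-06), with DMSO at 792 CPM. The melanin enzyme gene Tyrp1 rose from 6973 to 9275 CPM (0.41 ± 0.05), with DMSO at 9052 CPM and no call against it (0.04). Pmel was higher than scr by 0.33 and lower than DMSO (-0.19, adjusted p = 0.0441), and it overlaps Cdk2 on the opposite strand, so reads of the pair cannot be told apart without strand.

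MITF is known to bind the M-box, TCATGTG. This string, on either strand, was in 1.79% of all promoters and in 8 of the 40 promoters of the pigmentation list. Those belonged to 8 genes, of which 6 rose and 1 fell. Over all 41 genes of the list 20 rose (48.8%) and 2 fell. A match is a description and not evidence of binding. The stretches of 60 bases around the match in 3 genes that rose show it in capitals, 5′ to 3′ along the gene, from RefSeq promoters of GRCm38.p6.
Tyrp1, chr4:80834139-80834198, plus strand: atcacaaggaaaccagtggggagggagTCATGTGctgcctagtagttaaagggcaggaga
Trpm1, chr7:64153666-64153725, plus strand: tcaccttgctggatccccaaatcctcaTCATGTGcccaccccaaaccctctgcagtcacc
Dct, chr14:118052365-118052424, minus strand: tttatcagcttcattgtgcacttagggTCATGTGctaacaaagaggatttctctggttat

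Genes of the lysosome were listed with those of the vacuolar ATPase, the proton pump that acidifies lysosomes and melanosomes. Of 44 tested, 19 were higher than scr (43.2%) and 2 lower (4.55%), with a median of 0.14. Against DMSO 4 were higher (9.09%) and 2 lower (4.55%), near the 6.41% and 7.76% of all genes (median 0.04). In scr against DMSO 16 were lower (36.4%) and 1 higher (2.27%). Atp6v0a1, a pump subunit, went from 307 to 418 CPM (0.44 ± 0.05, adjusted p = 6.92e-07). Asah1, acid ceramidase, went from 165 to 221 CPM (0.42 ± 0.05), with DMSO at 211 CPM. Hexa, a hexosaminidase subunit, went from 312 to 408 CPM (0.39 ± 0.05), with DMSO also at 408 CPM. Galns fell by 0.25.

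Interferon-stimulated genes were higher in siEzh2 than in scr and at about their DMSO level. Of 53 tested, 34 rose and none fell (1 fell on library totals, with no count filter or without scr replicate 2). Their median was 0.37. Against DMSO 3 were higher (5.66%) and 2 lower (3.77%), with a median of -0.04. In scr against DMSO 32 were lower (60.4%) and none higher. Gbp2, an interferon-induced GTPase, rose from 5.76, 6.53 and 5.3 CPM to 14.1, 13.9 and 13.8 CPM (1.24 ± 0.09, adjusted p = 3.63e-09), and DMSO stood at 11.3 to 13.3 CPM. Ifih1, which encodes the RNA sensor MDA5, rose from 11.4, 11.8 and 12 CPM to 17.2, 18 and 17.7 CPM (0.59 ± 0.06, adjusted p = 6.8e-07), with DMSO at 15.3 to 15.7 CPM. Ddx58, the sensor RIG-I, went from 17.3 to 24.6 CPM (0.51 ± 0.07), with DMSO at 26.2. Of 20 MHC class I genes 8 rose (40%) and none fell. Among those that rose, H2-K1 went from 63.9 to 83.6 CPM (0.39 ± 0.06). Its reads could be shared with other H2 genes, and it stood at 83.7 CPM in DMSO. Against DMSO none of the 20 was higher and 4 were lower (20%, median -0.11). In scr against DMSO 14 were lower (70%). Unc93b1, which carries Toll-like receptors to endosomes, fell by 0.60.

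The interferon-stimulated response element, searched as GAAA, any 2 bases and GAAA on either strand, was in 2.47% of all promoters and in 16 of 49 promoters of the interferon list (32.7%). Of the 16 genes with a match, 10 rose and none fell, while 34 of the 53 tested genes of the whole list (64.2%) rose. The element is shown in 3 of the genes that rose, with matches in capitals. Ifit1 and Ddx60 each hold the string at 2 places.
Ifit1, chr19:34640779-34640838, plus strand: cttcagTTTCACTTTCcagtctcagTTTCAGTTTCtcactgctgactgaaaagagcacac
Gbp2, chr3:142620579-142620638, plus strand: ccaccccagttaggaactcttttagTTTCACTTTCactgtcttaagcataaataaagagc
Ddx60, chr8:61928027-61928086, plus strand: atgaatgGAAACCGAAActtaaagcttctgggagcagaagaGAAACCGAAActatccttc

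Most cholesterol synthesis genes rose over scr. Of 27, 21 rose (77.8%) and none fell (median 0.35). Against DMSO none was higher and 13 were lower (48.1%, median -0.21). In scr against DMSO 24 were lower (88.9%). Hsd17b7 and Msmo1, enzymes of the sterol part of the pathway, rose by 0.66 and 0.49 on the log2 scale.

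Of 37 glycolysis and hypoxia genes, 19 rose (51.4%) and 3 fell (8.11%) against scr, with a median of 0.19. Against DMSO 25 were higher (67.6%) and none lower (median 0.38). In scr against DMSO 20 were higher (54.1%) and 1 lower (2.7%), with a median of 0.21. Hk2, a hexokinase, stood at 137, 136 and 149 CPM in scr, 213, 227 and 238 CPM in siEzh2 and 116 to 132 CPM in DMSO (0.69 ± 0.07 against scr, adjusted p = 1.79e-07). Every siEzh2 library was above all libraries of both controls. Eno2, the neuronal enolase, fell from 16 to 7.62 CPM (-1.06 ± 0.08, adjusted p = 1.02e-08). DMSO stood at 9.03 CPM, from which siEzh2 was not called different (-0.24), while scr was called higher than DMSO (0.82).

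**Figure D4:**
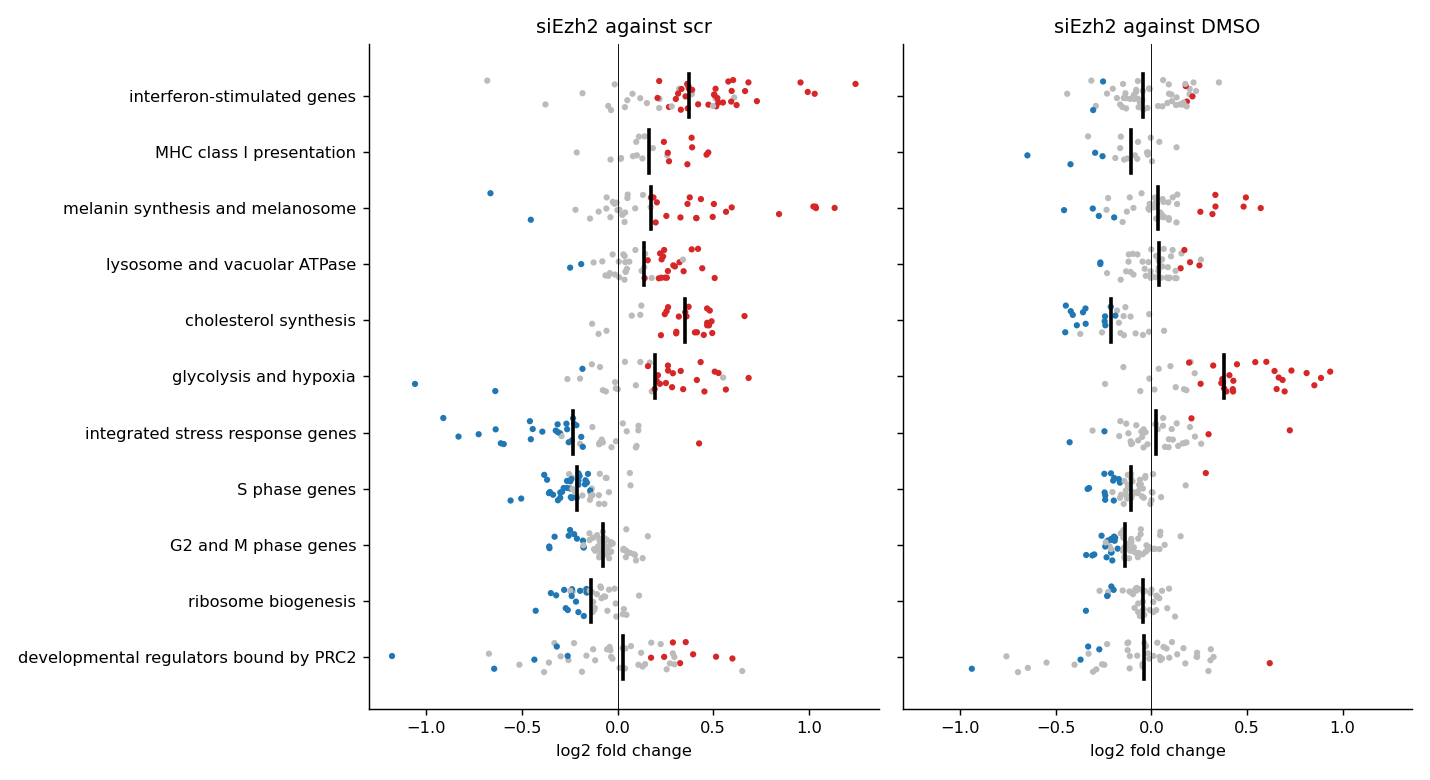
Log2 fold changes of the tested members of 11 gene lists, siEzh2 against scr (left) and against DMSO (right), with 1 point per gene, red for called higher, blue for called lower and grey for not called, and a bar at each list's median. The interferon median is 0.37 on the left and -0.04 on the right, and the glycolysis median 0.19 and 0.38.

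Integrated stress response genes fell against scr. This response, driven by ATF4, is switched on when cells are short of amino acids or under other stress. Of 39 genes 23 fell (59%) and 1 rose (2.56%), with a median of -0.23. Against DMSO, in contrast, 2 were lower (5.13%) and 3 higher (7.69%), with a median of 0.02. In scr against DMSO 23 were higher (59%) and 3 lower (7.69%), with a median of 0.25. Wars, a tRNA synthetase, fell from 193, 177 and 178 CPM to 120, 125 and 118 CPM (-0.60 ± 0.05, adjusted p = 4.74e-08), and DMSO stood at 124 to 134 CPM. Aldh1l2, a mitochondrial folate enzyme, went from 308 to 198 CPM (-0.64 ± 0.07), with DMSO at 203 CPM. Eif4ebp1, an inhibitor of translation, rose by 0.43 over scr and was not called against DMSO (0.16). The ATF4-type string TTGCATCA, on either strand, was in 0.488% of all promoters and in 6 of the 36 of this list. Of those 6 genes 3 fell, while 23 of all 39 fell (59%). The string is shown for a pair that fell.
Pycr1, chr11:120643818-120643877, minus strand: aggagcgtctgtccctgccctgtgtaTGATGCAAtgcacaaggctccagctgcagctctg
Chac1, chr2:119351023-119351082, plus strand: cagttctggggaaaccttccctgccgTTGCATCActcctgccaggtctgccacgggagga

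Genes of DNA replication fell by small amounts. Of 50 S phase genes 30 fell (60%) and none rose (median -0.21). Against DMSO 12 were lower (24%) and 1 higher (2%), with a median of -0.11. In scr against DMSO 16 were higher (32%) and 1 lower (2%), with a median of 0.09. Cdc45, a subunit of the replicative helicase, stood at 54.7, 56.2 and 52.4 CPM in scr, 37.1, 36.1 and 37.7 CPM in siEzh2 and 42.2 to 42.4 CPM in DMSO (-0.56 ± 0.05, adjusted p = 1.27e-07). Its siEzh2 libraries were below every library of both controls. Cdt1, a licensing factor, fell by 0.50 and Mcm5, a helicase subunit, by 0.37. Of 55 G2 and M phase genes 10 fell (18.2%, against 12.9% of all genes) and none rose (median -0.08). Against DMSO 17 of them were lower (30.9%, against 7.76% of all genes) and none higher (median -0.14). Of 40 ribosome biogenesis genes 15 fell (37.5%) and none rose (median -0.14). Against DMSO 5 of the 40 were lower (12.5%, against 7.76% of all genes) and none higher (median -0.04). Compared with scr, ribosome biogenesis had 9 genes lower without siEzh2 replicate 3. Of 53 ribosomal protein genes 3 fell (5.66%), a smaller share than the 12.9% of all genes, and none rose. Cdk6, a G1 kinase, fell from 13.5 to 7.44 CPM (-0.86 ± 0.10, adjusted p = 1.2e-06), and Cdkn1c, an imprinted inhibitor of cyclin-dependent kinases, from 2.12, 2.75 and 2.63 CPM to 0.581, 0.785 and 0.343 CPM, with DMSO at 0.335 to 0.385 CPM.
The E2F strings TTTCCCGC and TTTGGCGC, on either strand, were together in 2.35% of all promoters and in 8 of 43 of the S phase list. Of these 8 genes 6 fell, while 30 of all 50 S phase genes fell (60%). One promoter with a match is that of Mcm5.
Mcm5, chr8:75109334-75109393, plus strand: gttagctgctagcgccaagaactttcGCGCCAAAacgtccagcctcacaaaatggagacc

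Other lists moved in both directions. Of 36 mesenchymal and invasion genes 14 rose (38.9%) and 8 fell (22.2%). Of 50 axon guidance and adhesion genes 14 rose (28%) and 15 fell (30%). Of 27 PRC1 genes 5 rose (18.5%) and 4 fell (14.8%), near the 13.2% and 12.9% of all genes. Mmp15, a membrane-bound metalloproteinase, fell from 12.6, 13.4 and 12.1 CPM to 4.74, 5.09 and 4.48 CPM (-1.42 ± 0.09, adjusted p = 3.02e-10). L1cam, a neuronal adhesion molecule, rose from 69.7, 72.8 and 68.5 CPM to 151, 145 and 153 CPM (1.09 ± 0.05), and overlaps Arhgap4 on the same strand. Pcgf3 and Bmi1, PRC1 subunits, rose by 0.60 and 0.32 on the log2 scale, and Cbx2 of the same list fell (-0.29, adjusted p = 0.00199). Of 34 p53 targets 10 fell (29.4%) and 3 rose (8.82%), and 6 fell without siEzh2 replicate 3.

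The knockdown and the inhibitor were compared through genes called with siEzh2, since siEzh2 against scr and GSK126 against DMSO share no libraries. GSK126 called 12.7% of all genes, 7.15% higher and 5.54% lower. Among the 2000 genes higher with siEzh2, 262 were higher with GSK126 (13.1%, and 24.2% of all genes higher with GSK126) and 245 were lower (29.2% of all genes lower with GSK126), with a median of -0.00335. Among the 1953 lower genes 198 were higher (10.1%) and 106 lower (5.43%), the latter near the 5.54% of all genes. The shared calls were thus split between the directions. The test of the difference between the effects called 20.7% of genes. DZNep called 62.3% of genes, 31.2% higher and 31% lower. Of the 2000 genes higher with siEzh2 874 were higher (43.7%) and 583 lower (29.15%) with DZNep. Of the 1953 lower genes 838 were lower (42.9%) and 540 higher (27.6%) with it.

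Called members of the pigmentation and lysosome lists were mostly higher with siEzh2 and all lower with GSK126, though not always the same genes. Atp6v0a1 (0.01) and Asah1 (-0.00432), both higher with siEzh2, were not called with GSK126, while Hexa was lower (-0.22). Of the 41 pigmentation genes none was higher and 16 were lower with GSK126, and the difference of effects was called in favour of siEzh2 for 21 and against it for 2. For the lysosome list GSK126 lowered 20 of 44 and raised none, and the difference was higher for 26 and lower for 2. The GSK126 changes were measured against DMSO and the siEzh2 changes against scr, which itself stood below DMSO in 19 pigmentation genes and 16 lysosome genes. The part of this in the difference was not tested.

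The 4 largest differences downward were Sema3c, Cdsn, Lrrc75b and Pcdh17. Sema3c, a secreted guidance cue, was at 34.1, 30.7 and 34.5 CPM with GSK126 against 5.61 to 6.57 CPM with DMSO, and at 6.88, 7.35 and 6.97 CPM with siEzh2 against 11.7 to 15.3 CPM with scr, a difference of -3.35 ± 0.14 (adjusted p = 8.6e-13). Pcdh17, a protocadherin, was at 35.2, 31.6 and 34.4 CPM with GSK126 and 6.64 to 7.82 CPM with DMSO, and at 8.59, 8.21 and 7.93 CPM with siEzh2 and 14.4 to 15.1 CPM with scr (-3.04 ± 0.12). Both rose with the inhibitor against DMSO and fell with the siRNA against scr. In both genes, however, every siEzh2 library lay above every DMSO library, and scr lay higher still. Cdsn in scr was likewise above DMSO (2.48), and siEzh2 was not called against DMSO (-0.02). The part of scr in these differences was not tested. The 4 largest upward were Vwf (2.81 ± 0.18), Sgk2 (2.26 ± 0.17), Ccn4 (2.11 ± 0.07) and Dhrs3 (1.82 ± 0.13). Mest, an imprinted gene, also went in opposite directions, from 17.6 to 9.35 CPM with siEzh2 and from 17 to 46.3 CPM with GSK126.

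A smaller set moved the same way with both. The 6 genes with the largest joint rise, chosen after their values were seen, included Abca12, a lipid transporter, Ano3, a membrane protein of the anoctamin family, and Sgk1, a serum-regulated kinase. Abca12 went from 27.7, 29.3 and 31 CPM in scr to 90.7, 71.1 and 79.7 CPM in siEzh2, and from 52, 64.1 and 51.8 CPM in DMSO to 125, 125 and 106 CPM with GSK126. Ano3 went from 31.9 to 92 CPM with siEzh2 and from 53.2 to 110 CPM with GSK126. In Abca12, Ano3 and Sgk1 scr was called lower than DMSO (-0.93, -0.74 and -0.73), while in Creb5, another of the 6, it was not called (0.24). Sgk1 was higher with siEzh2 by 0.97 against scr and 0.24 against DMSO, and by 1.36 with GSK126. Its difference of effects was called (-0.39, adjusted p = 0.00891). The part of scr in these joint rises was not tested. Mmp15 was the largest joint decrease among genes at or above 2 CPM, at 4.96 to 5.84 CPM with GSK126 against 9.21 to 10.1 CPM with DMSO.

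**Figure D5:**
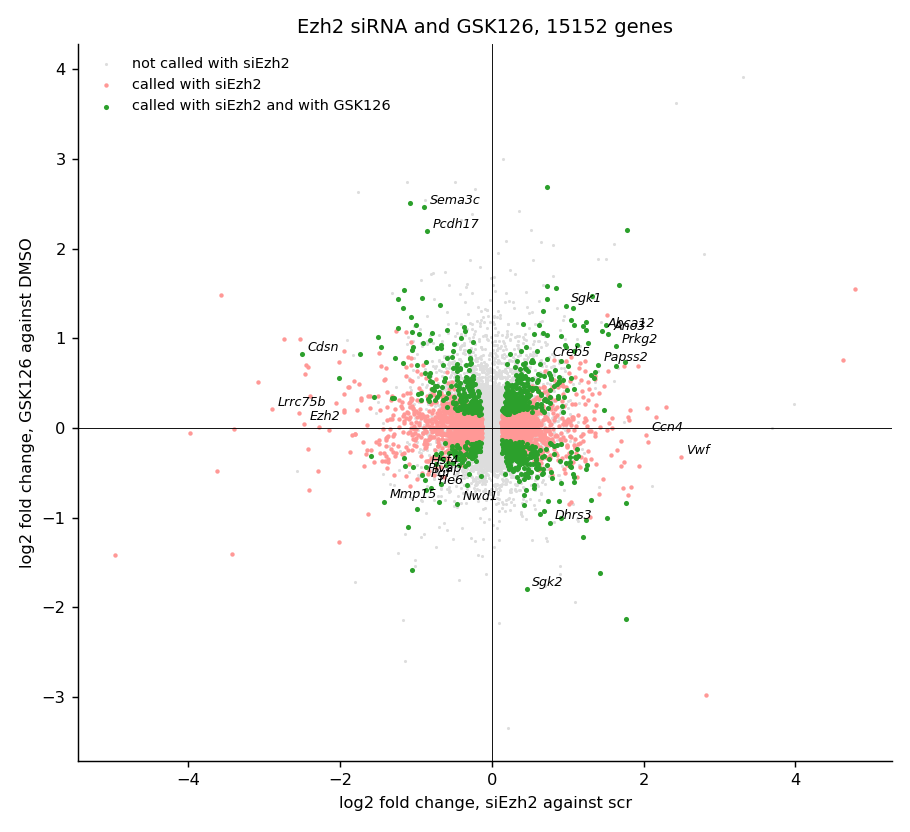
Log2 fold change with GSK126 against DMSO (vertical) plotted against that with siEzh2 against scr (horizontal) for each tested gene, with genes called in both in green. Sema3c and Pcdh17 lie at the upper left, Abca12, Ano3 and Sgk1 at the upper right, and Mmp15 at the lower left.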

How the data were processed

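The authors deposited whole-number read counts per gene for 15 libraries, not normalized. The submitters' processing notes name STAR, featureCounts and GRCm38. Their versions, annotation and use of strand were not given in the sources used here. All columns matched a sample's title. GENCODE M21 gave symbols and coordinates for 45229 of 46078 identifiers. Replicates of a siRNA group differed by more than sampling noise (chi-square per degree of freedom 8.46 to 35.9).

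Differences were tested by quasi-likelihood with edgeR 4.0.16 (R 4.3.3), with TMM scaling, robust estimation and the default low-count filter, in 1 fit of 15 libraries with a term per group. The biological coefficient of variation was 6.4%. The script was tested on simulated data. Alternatives were other scalings and filters, DESeq2 1.42.0, fewer libraries and a replicate block.

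Named genes were Ezh2, Ezh1, the 12 largest increases and decreases whose mean was 2 CPM or more and whose groups did not overlap, 3 called members per list by p with the first in the other direction, and the 4 largest differences from GSK126 each way. Other members are named for counts. There were 33 lists. Of 13 promoter strings searched in 9 lists, those printed were chosen after the shares were seen. Members and lists were chosen with earlier results of these data known.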

Additional observations from a re-analysis of the deposited data

How the results depend on the processing

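All 15 alternatives kept the counts of higher and lower genes within 1.5 times of 2000 and 1953. Without one siRNA library, 1606 to 1769 genes were higher and 1433 to 1602 lower, and Ezh2 lay between -2.49 and -2.43. On library totals alone 1648 were higher and 2258 lower, so that 42.2% of calls were higher in place of 50.6%. DESeq2 gave 2079 and 1828. Of the 3953 calls, 3750 were shared with DESeq2 and 3599 with library totals. Same-numbered scr and siEzh2 libraries did not deviate together (correlations -0.18, 0.07 and -0.15), so the numbers were not taken to pair them, and with the replicate block 1909 genes were higher and 1682 lower. The difference from the GSK126 effect was called for 2748 genes without GSK126 replicate 1, in place of 3132, and for 2589 to 2810 without one siRNA library. The median GSK126 change of genes higher with siEzh2 was 0.000644 without GSK126 replicate 1, 0.00768 on library totals and 0.0022 with the stricter filter, and that of genes lower with siEzh2 was 0.0111 without GSK126 replicate 1, so that neither median has a firm sign. Ezh1 turned to -0.00986 on library totals and lay between -0.0146 and 0.10 without one siRNA library. Among named genes, calls of Arid2, Nwd1, Rpl13a, Rps19 and Suz12 were lost in some settings. Of genes under 1 CPM 9.56% were called, and the part of depth in this was not tested.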
